A study of Mus musculus with 4 samples.

Results

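The genes described here are Cyp2b9 and Cyp2b10, a pair of mouse cytochrome P450 genes, with genes of the receptor system that controls drug metabolism in liver. They are Nr1i3, which encodes the constitutive androstane receptor (CAR), Nr1i2, which encodes the pregnane X receptor (PXR), Por, the P450 reductase, and Abcb1a, a drug efflux pump. They were taken by symbol from the array's platform annotation, with earlier results of these data known. Of the 6 symbols, 5 had a probe set, each of them 1, so the account rests on 5 of 35556 probe sets. Cyp2b9, Cyp2b10, Nr1i2 and Abcb1a had a probe set of their own. The Nr1i3 probe set is also annotated to Tomm40l, a gene of the mitochondrial import machinery, and cannot be assigned to either. Por was listed for no probe set in the annotation used here and has no value below.

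The study asked how liver expression compared after infusion of a short-chain fatty acid, a product of gut bacterial fermentation, into the cecum. The animals were male C57Bl/6J mice of 16 to 17 weeks that carried a permanent cecal catheter and had been kept for 6 weeks on a semi-synthetic diet containing palm oil. Conscious mice were infused for 6 h, after a short fast, with carbon-13 labelled sodium acetate, sodium propionate or sodium butyrate, or with phosphate-buffered saline as the control. The acid solutions were 0.3 M and ran at 0.2 ml/h, so that each acid was given at 2.4 mmol/h/kg, and the acids differ from one another by the length of the carbon chain. No gene was altered in any group. RNA was pooled before hybridization, from 6 mice each for acetate, propionate and control and from 4 mice for butyrate, and each pool was measured on 1 array.

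With 1 array a group there is no spread between mice or arrays, and no difference below has a replicate check or a test. A value is a log2 expression value, a difference of 2 values is a log2 ratio, and a gene is counted as higher or lower from 1.5-fold, or 0.58 as a log2 ratio. Levels under 5.55, the median of all genes' mean levels, are called below the level floor, and the size of a ratio there is taken as not exact. How near such levels lie to background was not measured. In a pool, fewer cells of a type and less RNA per cell cannot be told apart. The genes were chosen by their log2 ratios between these same arrays, so those ratios are a description.

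CAR and PXR are nuclear receptors that sense foreign compounds, bile acids and other lipids in hepatocytes. CAR is held in the cytoplasm by chaperones, moves to the nucleus on activation, and binds DNA with the retinoid X receptor. Cyp2b10 is the classic induced target of CAR in mouse liver, and PXR acts on an overlapping set of genes that includes P450s, conjugating enzymes and transporters. Cyp2b9 is known in mice as a P450 expressed more in female than in male liver, and Por hands electrons to all microsomal P450s.

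All 5 Cyp2b genes with a probe set lie in 1 cluster on chromosome 7. Their promoter sequences are shown because Cyp2b9 and Cyp2b10 differed in the arrays from each other and from their neighbours. The 250 bases before the start site (RefSeq, GRCm38.p6, plus strand) are given for Cyp2b9 at chr7:26173159-26173408, for Cyp2b13 at chr7:26061245-26061494 and for Cyp2b10 at chr7:25897408-25897657, 5′ to 3′, with the letters AGGTCA in capitals where they occur.
Cyp2b9: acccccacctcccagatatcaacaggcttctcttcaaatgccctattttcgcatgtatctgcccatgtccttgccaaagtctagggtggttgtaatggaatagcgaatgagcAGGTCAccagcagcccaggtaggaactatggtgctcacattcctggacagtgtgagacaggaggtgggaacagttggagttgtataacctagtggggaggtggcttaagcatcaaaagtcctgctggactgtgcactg
Cyp2b13: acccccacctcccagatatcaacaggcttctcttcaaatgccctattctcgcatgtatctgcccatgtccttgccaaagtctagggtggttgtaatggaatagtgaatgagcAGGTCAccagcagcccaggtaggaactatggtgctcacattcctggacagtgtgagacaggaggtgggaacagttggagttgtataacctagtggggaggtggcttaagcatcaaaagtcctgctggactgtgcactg
Cyp2b10: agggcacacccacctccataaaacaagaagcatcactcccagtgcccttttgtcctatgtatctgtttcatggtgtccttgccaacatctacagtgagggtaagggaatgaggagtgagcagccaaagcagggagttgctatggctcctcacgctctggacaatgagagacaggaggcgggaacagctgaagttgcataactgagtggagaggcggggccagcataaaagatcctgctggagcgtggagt
The Cyp2b9 and Cyp2b13 windows differed at 2 of 250 bases, T48C and C104T, with the Cyp2b9 base first and positions counted from 1 at the 5′ end. The Cyp2b10 window matched that of Cyp2b9 over 70% of aligned positions. AGGTCA is the half-site that many nuclear receptors bind. It was searched on both strands of windows reaching 50 bases past the start site. It occurred once in the Cyp2b9 and Cyp2b13 windows, from base 113, and in those of Cyp2b19 and Cyp2b23, and 16.3% of all 32851 promoter windows hold it. It was not among the letters of the Cyp2b10, Nr1i3, Nr1i2, Por or Abcb1a windows. The DR4 element, a direct repeat of these letters with a spacer of 4 bases, so that any match also holds the half-site, is in 0.0152% of windows, and TTCNNNGAA, the letters of a STAT5 site, in 8.3%, and neither was in any window of these genes. The best known CAR response element of Cyp2b10 lies further upstream than these windows reach.

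Cyp2b9 was far higher in the acetate and propionate pools than in control, and was not higher with butyrate. Its level was 7.99 with acetate, 8.28 with propionate and 5.05 with butyrate, against 5.45 in control. The acetate and propionate pools were thus high and close together, and the butyrate and control pools low and both below the level floor. The log2 ratios to control were 2.53 with acetate (5.79-fold higher), 2.82 with propionate (7.07-fold higher) and -0.41 with butyrate (1.33-fold lower). Among all 18820 genes with a probe set of their own, Cyp2b9 ranked 2 from the highest ratio with acetate and 1 with propionate. The propionate pool was 1.22-fold above the acetate pool, whereas the butyrate pool was 7.69-fold below acetate and 9.39-fold below propionate.

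Cyp2b10 was higher in the acetate pool alone of the 4. It stood at 5.81 with acetate, 4.39 with propionate and 4.12 with butyrate, against 4.21 in control. Only the acetate value lay above the level floor, and the propionate pool, the next highest, was 1.13-fold above control. The acetate pool was 3.03-fold above control (log2 ratio 1.60), rank 5 of all genes, while propionate and butyrate had log2 ratios of 0.17 and -0.09. Between acids, the propionate pool was 2.69-fold below acetate, the lowest ratio of all 18820 genes in that comparison, and the butyrate pool 3.23-fold below acetate. Among all 35556 probe sets, Cyp2b10 ranked 25 from the highest for acetate against control and 30 from the lowest for propionate against acetate. The paralogs therefore had different patterns. Cyp2b9 had a propionate minus acetate ratio of 0.29, and Cyp2b10 one of -1.43.

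**Figure D1:**
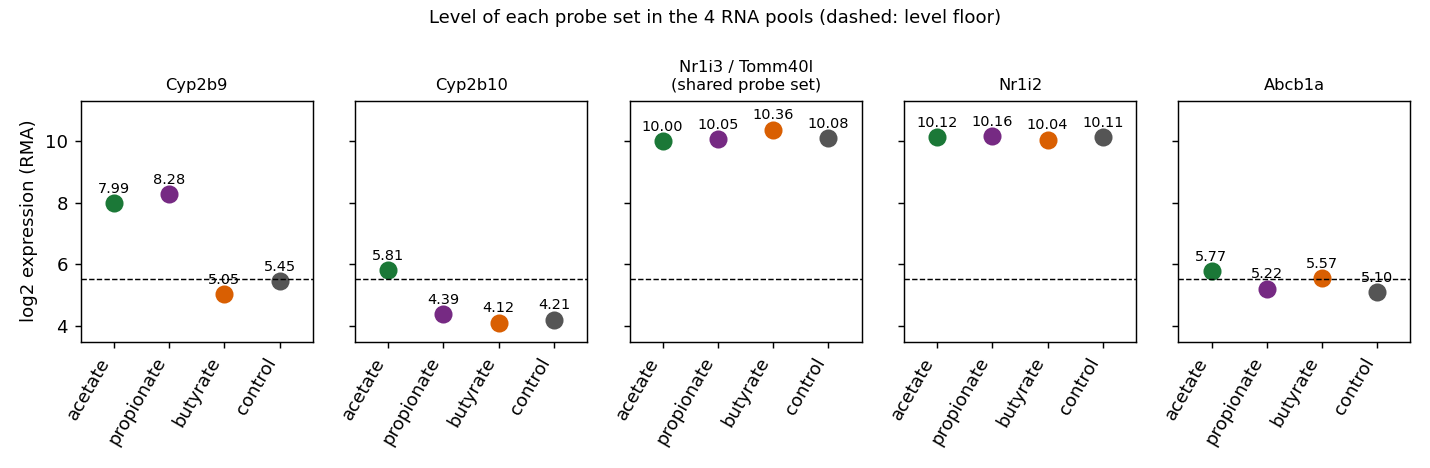
Log2 expression (vertical axis) of the 5 probe sets in the acetate, propionate, butyrate and control pools, 1 point per array, with the level floor as a dashed line. Cyp2b9 is high in the acetate (7.99) and propionate (8.28) pools, Cyp2b10 in the acetate pool (5.81), and the Nr1i3/Tomm40l and Nr1i2 probe sets lie near 10 in all 4 pools.

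The other 3 genes of the family did not share either pattern. Cyp2b13, like Cyp2b9 a female-biased gene in mouse liver and nearly identical to it in promoter sequence, stood at 2.33 with each acid and 2.27 in control, near the low end of the array's scale of 1.6 to 13.7. Cyp2b19, known as a skin P450, had ratios of 0.25, 0.18 and -0.11 with acetate, propionate and butyrate. Cyp2b23 had -0.06, 0.04 and -0.23. All 3 lay below the level floor in every pool. Short probes can bind transcripts of close paralogs, so a value names its probe set more surely than its gene.

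The probe sets annotated to the receptors differed little between pools, and that of Nr1i3 cannot be assigned to CAR alone. The probe set shared by Nr1i3 and Tomm40l stood at 10.00 with acetate, 10.05 with propionate and 10.36 with butyrate, against 10.08 in control, so the butyrate pool was the highest, by 1.21-fold over control. Nr1i2 stood at 10.12 with acetate, 10.16 with propionate and 10.04 with butyrate, against 10.11 in control. Its 4 values spanned 0.13 on the log2 scale, and no pool stood out. Both probe sets lay well above the level floor in every pool. These are transcript levels, and the arrays do not show where the receptor proteins were in the cell.

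Abcb1a encodes P-glycoprotein, an efflux pump of hepatocytes, gut epithelium and capillaries that is a target of PXR and CAR. It stood at 5.77 with acetate, 5.22 with propionate and 5.57 with butyrate, against 5.10 in control. The acetate pool was 1.59-fold above control, just past the threshold, the butyrate pool 1.38-fold and the propionate pool 1.08-fold. With the average of the remaining 3 pools as reference the acetate ratio was 0.48, under 1.5-fold. The propionate pool was 1.47-fold below acetate, just short of 1.5-fold, and the propionate and control pools lay below the level floor. Its near copy Abcb1b, below the level floor in every pool, had ratios of -0.23, -0.09 and -0.12 with acetate, propionate and butyrate. The phospholipid pump Abcb4 had 0.14, 0.10 and 0.07, and the bile salt pump Abcb11 had 0.04, -0.09 and 0.01.

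Of the 5 probe sets, 3 were at least 1.5-fold above control with acetate, 1 with propionate and 0 with butyrate, and 0 were lower with any acid. Among all 18820 genes, 1.19%, 1.26% and 1.34% passed 1.5-fold in either direction in these comparisons. Higher were 0.696%, 0.776% and 0.728%, and lower 0.494%, 0.489% and 0.616%. Between acids, 1 of 5 passed for propionate against acetate (Cyp2b10), 2 for butyrate against acetate (Cyp2b9 and Cyp2b10) and 1 for butyrate against propionate (Cyp2b9), where 0.595%, 1.87% and 1.27% of all genes did. The 3 comparisons with control share the control array, and the choice of genes used these contrasts.

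**Figure D2:**
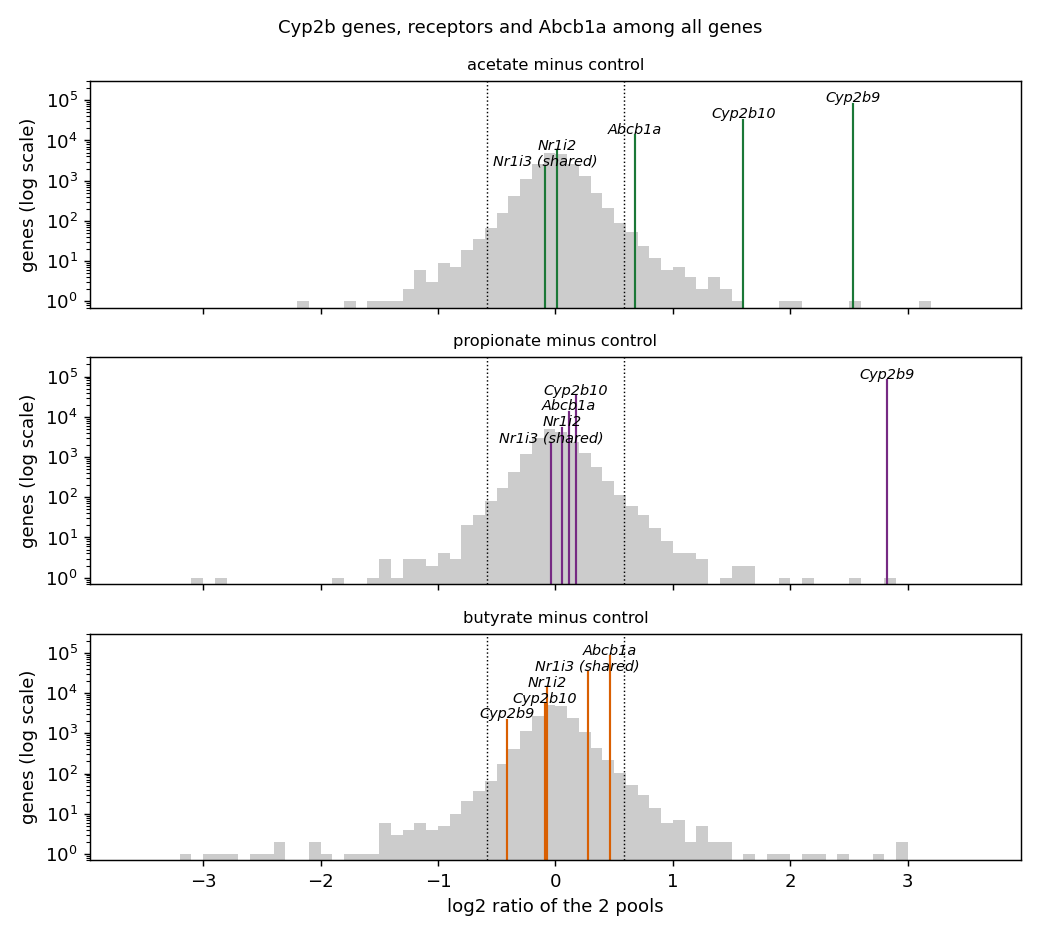
Histograms of the log2 ratio to control of all 18820 genes (vertical axis on a log scale) for acetate, propionate and butyrate, with coloured lines, whose heights only place the names, at the 5 probe sets and dotted lines at 1.5-fold. Cyp2b9 lies at 2.53 with acetate, 2.82 with propionate and -0.41 with butyrate, and Cyp2b10 leaves the bulk of genes with acetate alone (1.60).

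Most other targets of CAR and PXR with a probe set of their own differed from control by under 1.5-fold. Of 41 listed target genes, 35 had a probe set of their own. With acetate 24 of 35 lay above control and 1 passed 1.5-fold, with a median log2 ratio of 0.14. With propionate 19 lay above control, 1 was higher and 1 lower by 1.5-fold (median 0.0027), and with butyrate 17 lay above and 0 passed (median -0.0054). Among all genes, 50.5%, 47.8% and 49.0% lay above control with acetate, propionate and butyrate, and the medians were 0.0020, -0.0075 and -0.0029. The gene past the threshold with acetate and propionate was Gstm3, a glutathione transferase, at 11.25, 10.86 and 9.72 with acetate, propionate and butyrate, against 9.95 in control (2.47-fold and 1.88-fold higher with acetate and propionate, log2 ratio -0.23 with butyrate). The estrogen sulfotransferase Sult1e1 was the lower one with propionate (4.06 against 4.80 in control, both below the floor). Between acids, 0, 4 and 1 of the 35 were lower by 1.5-fold for propionate against acetate, butyrate against acetate and butyrate against propionate. None was higher, and 0.595%, 1.87% and 1.27% of all genes passed in either direction. For butyrate against acetate the 4 were Gstm3 (-1.53), Ccnd1 (-0.72), Nqo1 (-0.65, its mean below the floor) and Cyp3a11 (-0.63). With propionate 30 of 35 lay below acetate and 5 above, where 47.0% of all genes lay above.

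The P450s used most often as readouts of these receptors beside Cyp2b10 differed by under 1.5-fold from control. Cyp3a11, the main PXR-induced P450 of mouse liver, had ratios of 0.35, 0.21 and -0.28 with acetate, propionate and butyrate. Between acids, its butyrate minus acetate ratio was -0.63, past 1.5-fold. Cyp2c29 had 0.13, -0.06 and 0.07, and Cyp2a5 0.29, 0.27 and -0.14. The epoxide hydrolase Ephx1 had 0.34, 0.27 and 0.07, and the quinone reductase Nqo1 0.51, 0.23 and -0.14, with only its acetate level above the floor. Gstt3, a further glutathione transferase, had 0.36, 0.01 and -0.18. Among the 35 targets with their own probe set, the lowest ratio with butyrate was that of Thrsp, a lipogenic regulator (-0.51), followed by the cyclin Ccnd1 (-0.46), and the highest that of Cyp2c38 (0.42). Slco1a4, an organic anion uptake carrier, was at -0.45 with propionate.

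Some listed targets have only probe sets shared with other genes, and among these Gsta1 and Gsta2 stood out. The glutathione transferases Gsta1 and Gsta2, induced in mouse liver by several xenobiotic and antioxidant pathways, share 4 probe sets with one another and with predicted genes, so none can be named for a single gene. Over these 4 the level ran from 8.77 to 9.59 with acetate, 7.87 to 8.63 with propionate and 5.89 to 6.35 with butyrate, against 5.85 to 6.34 in control. Each of the 4 was highest with acetate and next highest with propionate. The probe sets were 7.47-fold to 9.91-fold above control with acetate and 3.92-fold to 5.12-fold with propionate, with log2 ratios of -0.04 to 0.08 with butyrate. In the acetate comparison they ranked 1, 2, 4 and 5 among all 35556 probe sets, and Cyp2b9 ranked 6. Similar copies share probes, so the 4 are not separate measurements. The probe set covering the Ugt1a genes, bilirubin and drug glucuronosyltransferases, had ratios of -0.02, -0.04 and 0.02. The sulfotransferase Sult2a1 has 2 shared probe sets, both with low levels, at -0.34, 0.17 and -0.56 and at -0.09, -0.09 and -0.03.

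**Figure D3:**
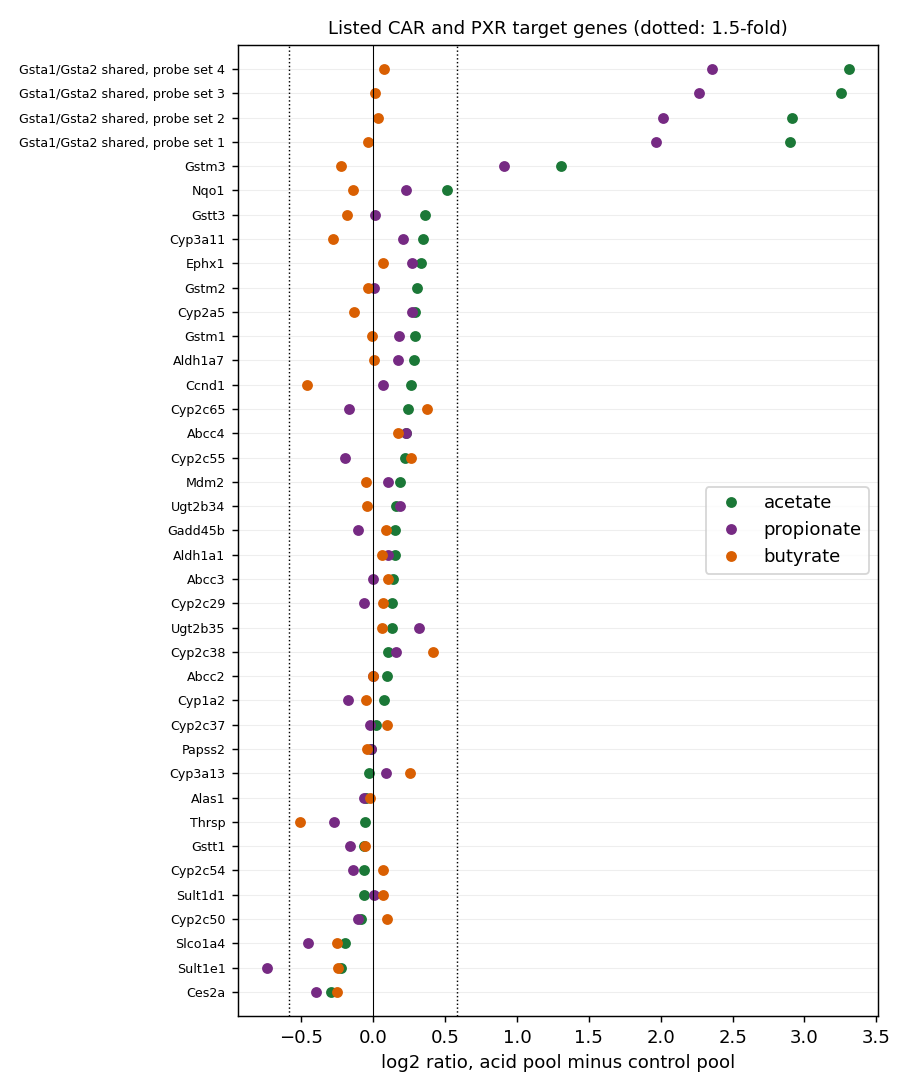
Log2 ratio to control (horizontal axis) of the 35 listed CAR and PXR targets with their own probe set and of the 4 probe sets shared by Gsta1 and Gsta2, for acetate, propionate and butyrate, with dotted lines at 1.5-fold. The Gsta1/Gsta2 probe sets lie at 2.90 to 3.31 with acetate and 1.97 to 2.35 with propionate, Gstm3 at 0.91 with propionate, and most other genes near 0.

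Partners and regulators of the receptors differed from control by under 1.5-fold. Of 28 listed genes beside Nr1i3 and Nr1i2, 21 were measured, and 0 passed 1.5-fold with any acid (medians -0.0020, -0.028 and -0.0063 with acetate, propionate and butyrate). The retinoid X receptor Rxra, the shared DNA-binding partner, had -0.06, -0.07 and 0.09. The cytoplasmic CAR retention protein Dnajc7 had -4.4e-04, 0.03 and 0.01, and the chaperone Hsp90aa1 0.24, 0.01 and -0.0041. The coactivator Ppargc1a, which is raised by fasting, had the largest ratio with acetate (0.51), against 0.13 with propionate and 0.22 with butyrate. Rxrg was at -0.34 with acetate. The hepatocyte factors Cebpa and Foxa2 stood at -0.29 and -0.26 with propionate, the kinase subunit Prkaa2 at 0.17 with propionate, and Nr0b2, a repressor, and Foxa2 at -0.29 and -0.28 with butyrate.

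Genes known to be lowered when CAR is active gave 2 of 7 measured members past the threshold with acetate and 0 with propionate or butyrate. These were the bile acid synthesis enzymes Cyp7a1 and Cyp8b1. Among all genes, 0.494%, 0.489% and 0.616% were lower by 1.5-fold with acetate, propionate and butyrate. Cyp7a1 stood at 10.34 with acetate, 10.80 with propionate and 11.07 with butyrate, against 10.99 in control, and the acetate pool was 1.56-fold lower than control. Cyp8b1 stood at 9.06, 9.70 and 10.11, against 9.69 in control, and was 1.54-fold lower with acetate. The gluconeogenic genes of the same list differed little, with Pck1 at -0.02, 0.04 and 0.0057 and G6pc at 0.04, -0.07 and 0.16. Igfbp1, a binding protein of insulin-like growth factors, had 0.42, 0.15 and 0.28 with acetate, propionate and butyrate, and Ppargc1a 0.51, 0.13 and 0.22, so with acetate both lay on the other side of control from Cyp7a1 and Cyp8b1. The 7 measured genes had medians of -0.020, 0.017 and 0.16 with acetate, propionate and butyrate. Of these 7, 3, 4 and 7 lay above control, as did 50.5%, 47.8% and 49.0% of all genes. Between acids, Cyp8b1 was higher by 1.5-fold for propionate against acetate (0.64). For butyrate against acetate Cyp8b1 (1.05) and Cyp7a1 (0.73) were higher. In these 2 comparisons 0.595% and 1.87% of all genes passed in either direction.

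Por had no value, and the other carriers that pass electrons to P450s or modulate them differed from control by under 1.5-fold. Cytochrome b5 (Cyb5a) had ratios of -0.01, 0.04 and -0.03, its reductase Cyb5r3 -0.0012, -0.06 and -0.01, Cyb5b 0.13, -0.02 and -0.25, Pgrmc1 0.05, 0.02 and 0.08, and Pgrmc2 -0.07, -0.09 and -0.08. P450s also need heme. Of 10 measured heme genes 0 passed 1.5-fold against control, and Alas1, the rate-limiting enzyme and itself a CAR and PXR target, had -0.05, -0.06 and -0.02. The heme oxygenase Hmox1 stood at 9.05 with acetate, 9.98 with propionate and 10.05 with butyrate, against 9.53 in control, so it was 1.39-fold lower with acetate and 1.37-fold and 1.44-fold higher with propionate and butyrate. Between acids, 1 of the 10 heme genes passed 1.5-fold for propionate against acetate and 1 for butyrate against acetate. Each was Hmox1, at 0.94 and 1.00, where 0.595% and 1.87% of all genes passed in either direction. Ppox, an enzyme late in heme synthesis, had -0.30, -0.21 and -0.26 against control. Uros was at -0.38 with propionate, the biliverdin reductase Blvra at -0.14 with acetate and Cpox at 0.12 with butyrate.

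Cyp2b9 is a female-biased gene and these were male mice, so sex-biased genes were read beside it. Of 15 other measured female-biased genes, 2 were higher by 1.5-fold with acetate, 2 with propionate and 0 with butyrate, with medians of 0.064, 0.10 and 0.11. Among all genes, 0.696%, 0.776% and 0.728% were higher by 1.5-fold with acetate, propionate and butyrate. The neurotrophin receptor Ntrk2 was one of the female-biased genes that passed with both acetate and propionate (4.87, 4.66 and 4.10 with acetate, propionate and butyrate, against 3.76 in control). Prom1 was the second with acetate (0.63), and the transporter Slc22a26 with propionate, where it was 3.11-fold higher (6.50 against 4.87 in control). Ntrk2 and Prom1 lay below the floor in all pools, and Slc22a26 in all but the propionate pool. None of these genes had a mean level at or above the floor, so the size of their ratios is not exact. Cux2, a female-specific factor of mouse liver, was at -0.58 with acetate, just inside the threshold. With butyrate the peroxisomal oxidase Hao2 (0.42) and the peroxisomal transporter Abcd2 (-0.38) had the largest ratios of the list. Of 18 measured male-biased genes, 1 passed, Bcl6 with propionate (0.73), a repressor of female-biased genes in male mouse liver. With acetate the largest of that list were Ugt2b38 (0.32), Bcl6 (0.30) and Susd4 (-0.28), with propionate Selenbp2 (0.29) and Susd4 (-0.26) followed Bcl6, and with butyrate the fatty acid elongase Elovl3 (-0.25), Nudt7 (-0.24) and Bcl6 (0.14) led. The medians of that list were 0.013, -0.0052 and -0.046.

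The genes most like Cyp2b9 across the 4 pools were found by the distance between log2 values centred on each gene's mean, among genes at or above the level floor. They were the tubulin Tuba8 (distance 1.66), Gstm3 (1.74), the surface protein gene Ly6d (1.77), the thioesterase Acot2 (1.82) and D17H6S56E-5 (1.89). The distance of Cyp2b9 from a gene with no difference between pools is 2.90, so none was close in size. The 4 shared Gsta1/Gsta2 probe sets, which were added after their values were seen, lay nearer, at 0.946 to 0.997. The genes nearest to Cyp2b10, itself 1.37 from flat, were the endoplasmic reticulum degradation factor Derl3 (0.323), the immediate early receptor gene Nr4a1 (0.576), Ly6d (0.662), the lipid droplet gene Cidec (0.664) and D17H6S56E-5 (0.723). Derl3 stood at 7.50 with acetate, 6.35 with propionate and 5.87 with butyrate, against 6.30 in control.

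**Figure D4:**
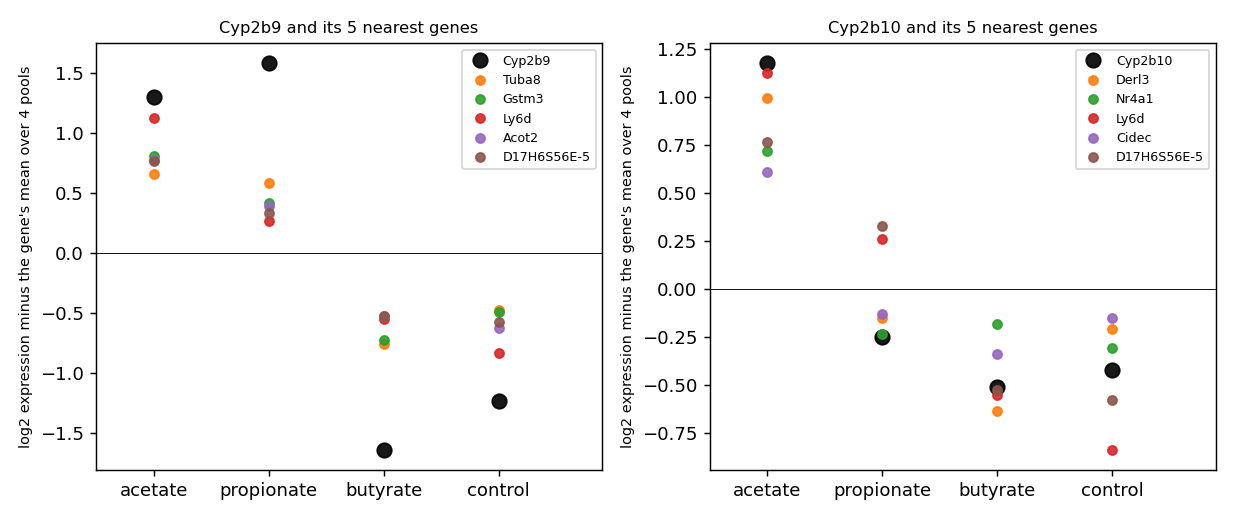
Log2 expression minus each gene's mean over the 4 pools (vertical axis) for Cyp2b9 (left, black) and Cyp2b10 (right, black) with the 5 genes nearest to each, by pool. The neighbours of Cyp2b9 lie above 0 with acetate and propionate but less far than Cyp2b9 itself (1.58 with propionate), and Derl3 (0.99) lies close to Cyp2b10 (1.18) with acetate.

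The label of liver was checked against markers, and all 10 measured hepatocyte markers lay above the level floor in every pool with medians of 0.0081, 0.0090 and 0.012 with acetate, propionate and butyrate. Perivenous markers, of the zone where CAR targets are mostly expressed, gave 0 of 10 past 1.5-fold with any acid and medians of -0.038, -0.053 and -0.0049. Markers of other cell types did differ. Among all genes, 1.19%, 1.26% and 1.34% passed 1.5-fold in either direction with acetate, propionate and butyrate. Of 11 pancreatic acinar markers 9, 8 and 0 were lower by 1.5-fold with acetate, propionate and butyrate, and their summed linear level was 6937, 7796 and 9239, against 11824 in control. The elastase Cela1 was among them, at 7.72 with acetate and 8.07 with propionate, against 8.83 in control. Beside Abcb1a, which gut epithelium expresses, 7 of 16 intestinal markers were higher with butyrate and 0 with acetate or propionate, and their summed level was 2552, 2703 and 3960, against 2443 in control. Of those 16, 8 were at or above the floor with butyrate and 5 in each other pool. Of 12 skeletal muscle markers 11 were lower with butyrate (summed level 376, against 1763 in control). Kupffer cell markers gave 0, 3 and 5 of 14 higher with acetate, propionate and butyrate (Marco 0.98 with propionate), and neutrophil and monocyte markers 3 lower, 1 lower and 4 higher of 10 (Mpo -1.41 with acetate and -0.68 with propionate). Mpo lay below the floor in the acetate, propionate and control pools, and 4 of the 10 had a mean at or above the floor. Stellate cell markers gave 2 of 12 higher with acetate and 1 lower with butyrate (Des, -0.75). With butyrate 8 of the 12 lay above control (median 0.094), as did 49.0% of all genes. Of 7 adipocyte markers, 1 was higher with acetate (Cidec, named above beside Cyp2b10) and 2 were lower with each of propionate and butyrate. Red cell markers gave 2 of 4 higher with butyrate, Slc4a1 (1.34) and Car1 (1.90). Car1 is also among the 7 intestinal markers counted above, so it is not separate for the 2 lists. Of endothelial and cholangiocyte markers 1 each was higher with butyrate, of 7 periportal markers 1 with acetate and 1 with propionate (Aldh1b1, 0.96 and 0.70), and of 11 lymphocyte markers 0 passed against control. The part of these in the values of Cyp2b9, Cyp2b10 and Abcb1a was not tested.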

How the data were processed

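Liver RNA was pooled within each infusion group and each of the 4 pools was hybridised once to a whole-transcript array. The deposited values are log2 expression per probe set, made by RMA (background correction, quantile normalization and summary of probes) per the submitters' processing notes. The version of RMA was not given in the sources used here, nor was the array's build. The array medians lay between 5.11 and 5.12, so a shift of all genes cannot be seen. Gene symbols came from the platform annotation held by GEO, where 21218 of the 35556 probe sets had 1 symbol, 1881 several and 12457 none. Probe sets of 1 symbol were averaged to 18820 genes, of which 9410 had a mean at or above the level floor of 5.55. Pearson's r between arrays over these was 0.990 to 0.996 (genes are not replicates).

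Log2 ratios of 2 pools were taken for 6 comparisons, with Python 3.11.15 and pandas 2.3.3, and the counting was tested on simulated data. No p-value or standard error is given, because each group is 1 array, and the number of arrays limits the precision. The genes and the 9 pathway and 14 marker lists were chosen with earlier results of these data known. The text names the 6 symbols, all of the Cyp2b, electron transfer and P-glycoprotein lists, the members past 1.5-fold or the first 3 by size of the other lists, the 5 genes nearest to Cyp2b9 and to Cyp2b10, and at most 4 genes per marker list past 1.5-fold; further list members are named as known readouts. Promoter sequences are RefSeq's (GRCm38.p6), with all 6 symbols matched, and the build of the array was not needed for them. Alternatives were cyclic loess and quantile normalization (limma 3.58.1), other references, thresholds, floors and probe set rules.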

Additional observations from a re-analysis of the deposited data

How the results depend on the processing

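No paired analysis was possible because each group has 1 array, and no array could be left out of a comparison. Of 135 alternative values of the 30 ratios, 132 stayed on the same side of 1.5-fold, and cyclic loess and quantile normalization moved no ratio by more than 0.040. That count says little, because each measured symbol has 1 probe set and the probe set rules could not change any of its values. Quantile normalization is also already part of RMA, so repeating it could move little. The 3 values that changed side came with the mean of the other 3 pools as reference, which holds other acid pools. There Cyp2b9 and Cyp2b10 with butyrate were at -2.19 and -0.68, and Abcb1a with acetate at 0.48. Of the 5 probe sets, 2 passed for butyrate against control with that reference, as did 2 at a 1.3-fold threshold, and 2 for propionate against acetate at 1.3-fold.

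Counts of genes moved with the threshold and floor. The 107, 104 and 105 genes past 1.5-fold with acetate, propionate and butyrate became 341, 379 and 326 at 1.3-fold, 21, 11 and 29 at 2-fold, and 224, 238 and 253 with no floor. Against the mean of the other 3 pools, 64 and 42 passed with acetate and propionate. Between acids (propionate against acetate, butyrate against acetate, butyrate against propionate) 52, 179 and 90 became 236, 526 and 391 at 1.3-fold, 11, 43 and 26 at 2-fold, and 112, 352 and 239 with no floor. A floor computed without the butyrate pool, an alternative chosen after seeing the data, kept the counts for acetate and propionate within 1.5 times. Of 51 list counts, 3 moved, each when members below the floor were left out, to 1 target with propionate and to 0 female-biased genes with acetate and with propionate. With distance taken on shape alone, 1 of the 5 genes nearest to Cyp2b9 and 3 of the 5 nearest to Cyp2b10 were shared. Levels near the floor limit Cyp2b10, Abcb1a and the low pools of Cyp2b9.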
